A study of Mus musculus with 2 samples.

Results

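Metallothioneins and antioxidant enzymes were followed in single-cell RNA profiles of mouse dorsal skin. The set held 10 genes of the 55353 gene symbols in the files, namely the metallothioneins Mt1, Mt2 and Mt4, the glutathione peroxidases Gpx1, Gpx2 and Gpx3, the superoxide dismutases Sod2 and Sod3, haem oxygenase 1 (Hmox1) and the quinone reductase Nqo1. They were chosen by symbol, with levels in these same libraries already known, so what follows describes them and supports nothing by the choice. Of the 2 libraries, 1 came from skin given Shi-Bi-Man, a natural product, together with imiquimod, and the other from skin given imiquimod. Imiquimod activates Toll-like receptor 7 and is widely used on mouse skin to model psoriasis. Both libraries came from C57BL/6 mice aged 7 weeks, and both carried imiquimod. Doses, sex and the number of mice per library are not given in the sources used here, and no library from untreated skin was analysed here. With 1 library behind each group, differences lack replication and were not tested. The intervals in brackets are 95% intervals and cover counting error only.

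Metallothioneins are small cysteine-rich proteins that bind zinc and copper. Mt1 and Mt2 are made in most tissues and are induced by metals, glucocorticoids and inflammation, through the metal-sensing transcription factor MTF1 among others, while Mt4 is known from differentiating stratified squamous epithelium. The glutathione peroxidases reduce peroxides with glutathione: Gpx1 in the cytosol, Gpx2 mainly in epithelia, and Gpx3 as a secreted enzyme. Sod2 is the mitochondrial and Sod3 the extracellular superoxide dismutase. Hmox1 breaks down haem and is prominent in macrophages that take up red cells, and Nqo1 is a standard target of the transcription factor NRF2.

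Skin given Shi-Bi-Man plus imiquimod yielded 20837259 counts over 8054 barcodes, and skin given imiquimod 28920316 counts over 11316 barcodes. After filtering, 7863 cells with a median of 1780 counts and 11019 cells with a median of 1616 counts remained. Clustering without the 10 genes gave 26 clusters, 24 of which carried enough markers of 1 kind of cell to be named, in 18 classes written as -like. There were 49 barcodes present in both libraries, and doublet calling did not work in the imiquimod library. Levels are given as CPM, the counts of a gene per 1000000 counts of all the cells of a class in a library, and ratios are log2 of the Shi-Bi-Man plus imiquimod level over the imiquimod level. The 11 classes with at least 100 cells in each library were compared. Their sizes differed: basal keratinocyte-like cells numbered 924 with Shi-Bi-Man plus imiquimod and 165 with imiquimod, T and NK cell-like cells 509 and 2521, and blood endothelial-like cells 247 and 502, in the same order. Suprabasal keratinocyte-like cells (815 and 8) and stress keratin keratinocyte-like cells (20 and 763) came almost entirely from 1 library each, so library and cell state cannot be told apart there. Summed spinous keratinocyte markers, which non-keratinocytes should lack, stood at 1375 CPM with Shi-Bi-Man plus imiquimod and 714 CPM with imiquimod in fibroblast-like cells, and summed red cell markers at 11.2 and 1736 CPM, both above 0 in both libraries.

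The 3 metallothionein genes lie on the plus strand of chromosome 8 within 43131 bases (GRCm38, GENCODE vM21), with Mt4 at chr8:94137197-94139031, Mt2 at chr8:94172664-94173568 and Mt1 at chr8:94179082-94180327. Hmox1 (chr8:75093621-75100589, plus strand) and Nqo1 (chr8:107388225-107403206, minus strand) are on the same chromosome. The others are spread, with Gpx1 on chromosome 9, Gpx2 on 12, Gpx3 on 11, Sod2 on 17 and Sod3 on 5. The sequences upstream of the 3 metallothionein genes are shown because Mt1 and Mt2 levels went together across classes (Pearson's r 0.93). For Mt1 and Mt4 r was 0.01, both over the sums described below. Those sums leave out the suprabasal and stress keratin keratinocyte-like classes, where most Mt4 counts were. The sequences run 5′ to 3′ on the plus strand over the 240 bases before each start as RefSeq annotates it (GRCm38.p6). Capitals mark cores of the metal response element, the motif that MTF1 binds, searched as TGCACNC or TGCGCNC on both strands.
Mt1 (chr8:94178839-94179078): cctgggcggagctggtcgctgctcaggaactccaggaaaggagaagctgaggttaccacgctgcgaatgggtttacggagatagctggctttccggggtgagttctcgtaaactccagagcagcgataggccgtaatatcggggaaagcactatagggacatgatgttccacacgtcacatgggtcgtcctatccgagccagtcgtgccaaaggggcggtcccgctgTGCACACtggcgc
Mt2 (chr8:94172368-94172607): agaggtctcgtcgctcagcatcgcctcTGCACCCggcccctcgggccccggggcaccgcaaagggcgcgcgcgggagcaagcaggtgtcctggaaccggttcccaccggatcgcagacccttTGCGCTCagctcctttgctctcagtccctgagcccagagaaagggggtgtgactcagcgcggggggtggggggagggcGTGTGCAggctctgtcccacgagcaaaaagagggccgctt
Mt4 (chr8:94136954-94137193): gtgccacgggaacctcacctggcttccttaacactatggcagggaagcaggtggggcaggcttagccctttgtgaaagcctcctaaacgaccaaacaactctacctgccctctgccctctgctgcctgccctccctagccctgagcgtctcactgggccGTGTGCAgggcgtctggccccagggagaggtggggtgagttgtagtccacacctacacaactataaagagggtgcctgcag

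The Mt2 window held 3 cores, 2 on the plus and 1 on the minus strand, with no overlaps. The Mt1 and Mt4 windows held 1 core each, on the plus strand for Mt1 and on the minus strand for Mt4. The windows of Gpx1, Gpx2, Gpx3, Sod2 and Nqo1 held 0. Of 32851 RefSeq windows of the same length, 20.4% held at least 1 core and 1.18% at least 3. A core of the antioxidant response element (TGACNNNGC, both strands) was present in the Mt2 window alone among the 8 members with a window, and in 9.67% of all windows. Annotated starts differ between sources. GENCODE vM21 begins Mt1 transcripts at 94179082, 94179211 and 94179241, so the bases before the later Mt1 starts are outside the window. It begins Mt2 transcripts at 94172664 and 94172860, while the Mt2 window ends at 94172607. The bases just before both Mt2 starts are therefore outside the window too. The Mt1 and Mt2 windows thus lie differently against these starts, and their core numbers are not read as a difference between the genes. A match describes the letters only.

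**Figure D1:**
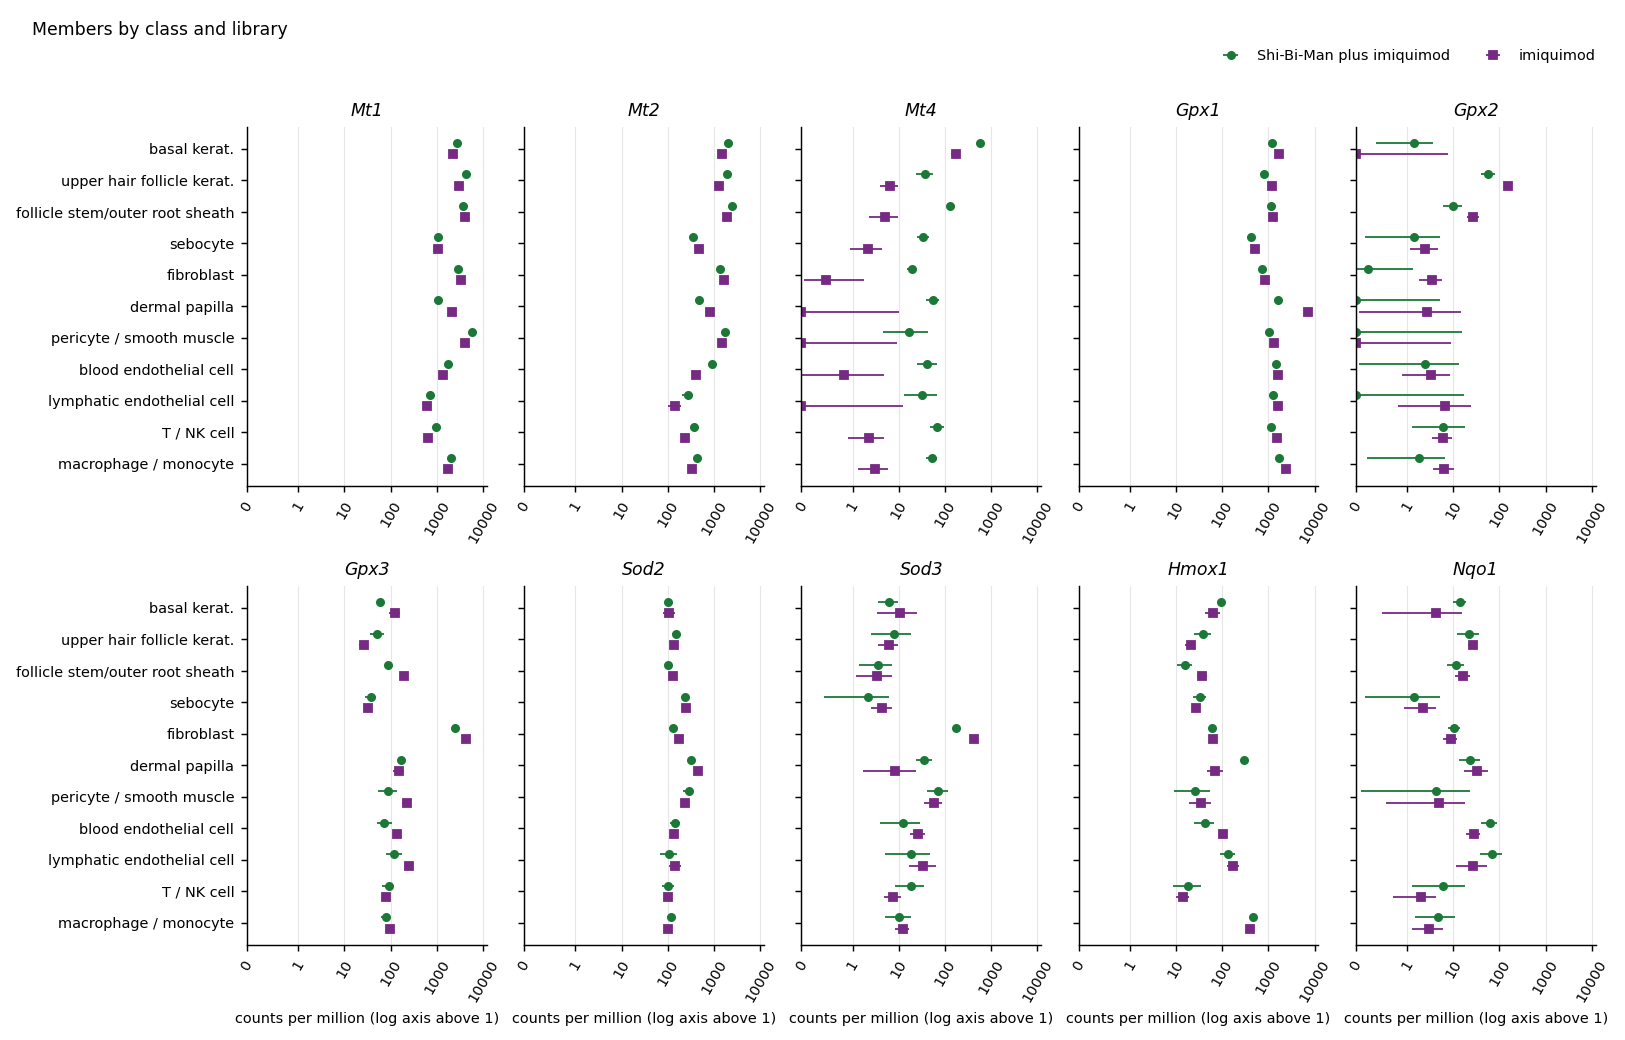
Levels of the 10 genes in the 11 compared classes, in CPM on an axis that is linear below 1 and logarithmic above. Circles show skin given Shi-Bi-Man plus imiquimod, squares skin given imiquimod, and bars the 95% Poisson intervals. Gpx3 and Sod3 stand highest in fibroblast-like cells in both libraries, Hmox1 in macrophage and monocyte-like cells, and Gpx2 in upper hair follicle keratinocyte-like cells, while Mt4 stands higher with Shi-Bi-Man plus imiquimod wherever it was measured.

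Of 110 combinations of a gene and a compared class, 92 had at least 20 counts over both libraries. Of these, 21 were at least 1.5-fold higher with Shi-Bi-Man plus imiquimod, 16 at least 1.5-fold lower and 55 lay between. Over all genes and the same classes, 17.4% of values were that much higher and 13.4% that much lower. Mt4 gave 8 of the higher values; without it, 13 of 84 were higher and 16 lower, and 55 lay between. The counts differed by class. Basal keratinocyte-like cells had 3 higher and 2 lower among 9 measured members, beside 13.0% and 20.4% of all genes. Upper hair follicle keratinocyte-like cells had 3 and 1 of 10, beside 24.5% and 9.72%. Follicle stem and outer root sheath keratinocyte-like cells had 1 and 3 of 9, beside 22.4% and 11.1%. For fibroblast-like cells the counts were 1 and 2 of 9, beside 9.70% and 11.0%.

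In dermal papilla-like cells 3 members were higher and 3 lower of 9, beside 32.2% and 13.2% of all genes. For blood endothelial-like cells the counts were 2 and 3 of 8, beside 13.9% and 18.9%. For T and NK cell-like cells the counts were 4 and 0 of 9, beside 19.3% and 16.0%. The 4 were Mt1, Mt2, Mt4 and Sod3, and T and NK cells are not known to make the last 2. Mt4 had 33 counts with Shi-Bi-Man plus imiquimod and 7 with imiquimod, and Sod3 9 and 23. Macrophage and monocyte-like cells had 1 and 0 of 8, beside 13.8% and 11.6%. The median log2 ratio of all genes was 0.25 in the dermal papilla-like class, 0.17 in the upper hair follicle class, 0.13 in the follicle stem class and -0.11 in the basal class, and within 0.1 of 0 in the other 7. Ratios in those 4 classes are to be read against these medians. By gene, Gpx3 was lower by that fold in 6 of 11 classes, Mt2 higher in 3 of 11 and Sod2 past the fold in 0 of 11. Without cells holding a red cell marker count, Gpx3 intervals spanned 0 in basal keratinocyte-like (-1.25 to 0.87) and blood endothelial-like cells (-1.12 to 0.32). The same held in lymphatic endothelial-like (-1.61 to 0.09) and pericyte-like cells (-1.62 to 0.09). The intervals stayed below 0 in fibroblast-like (-0.98 to -0.90) and follicle stem-like cells (-1.79 to -1.19).

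**Figure D2:**
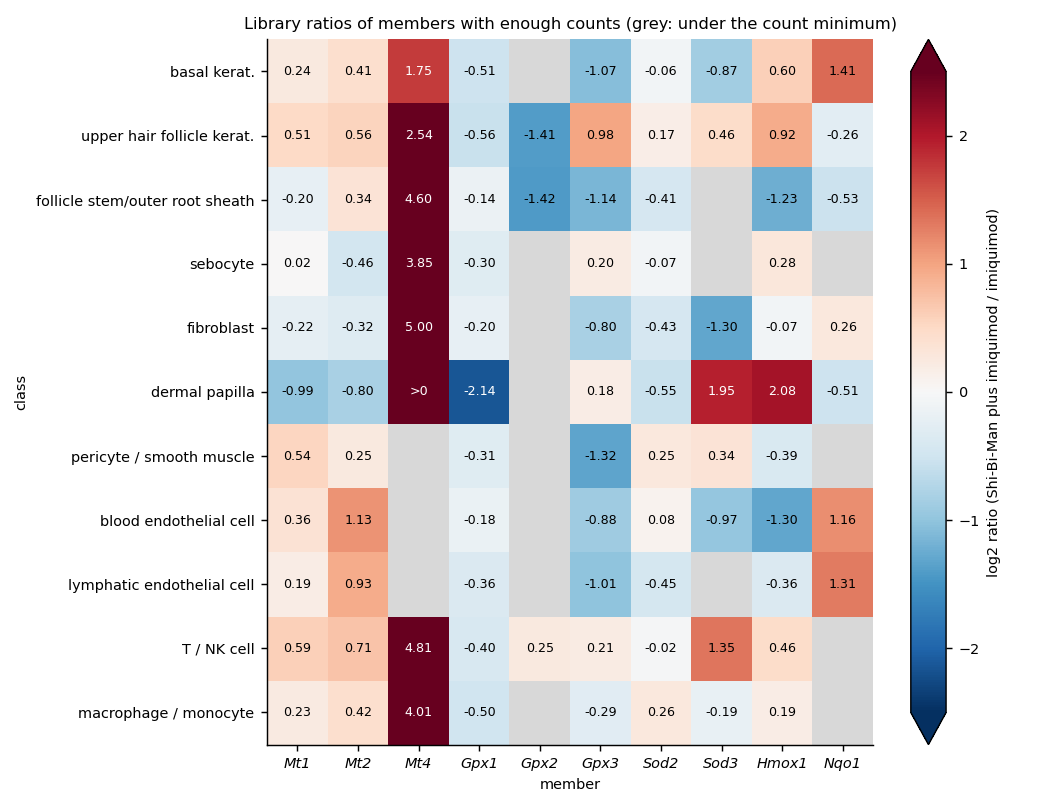
Log2 ratios of the Shi-Bi-Man plus imiquimod over the imiquimod level for each gene (columns) and compared class (rows), with 0.5 added to each count. Grey cells had under 20 counts over both libraries, colours stop at 2.5 in either direction, and >0 marks Mt4 in dermal papilla-like cells, where the imiquimod library held 0 counts. The Mt4 column is the only one above 0 in every measured class and the Gpx1 column the only one below 0 in all 11.

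Mt1 and Mt2 were present in every class. Among the 15 classes with at least 50 cells with Shi-Bi-Man plus imiquimod, Mt1 was highest in pericyte and smooth muscle-like cells at 5769 CPM (5469 to 6081), above upper hair follicle keratinocyte-like cells at 4289 and follicle stem-like cells at 3618, and no neighbouring pair of these 3 overlapped. Among the 16 such classes with imiquimod, melanocyte-like cells came first at 6110.1 CPM (5763 to 6472), followed by follicle stem-like, Schwann cell-like and pericyte-like cells between 4161 and 3978 CPM, which overlapped one another. Lymphatic endothelial-like cells were lowest in both libraries, at 706 CPM with Shi-Bi-Man plus imiquimod and 621 CPM with imiquimod. For Mt2 the highest class with Shi-Bi-Man plus imiquimod was the follicle stem-like one at 2388 CPM and with imiquimod the melanocyte-like one at 2323 CPM, and the lymphatic endothelial-like class was again lowest.

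Mt1 and Mt2 levels went together across classes. Over 34 sums of 17 classes and clusters in the 2 libraries, Pearson's r of log2(CPM + 10) was 0.93 and Spearman's rho 0.90. Sums of 1 library share its depth and free RNA, so this is a description. Each of the 17 had at least 50 cells in each library, and fibroblast-like cells entered both as a class and as clusters. Within classes cells with one more often had the other: with each cell thinned to 500 counts, 45.5% of fibroblast-like cells with Shi-Bi-Man plus imiquimod that had an Mt1 count had an Mt2 count, against 23.7% of those without, and with imiquimod the shares were 51.1% and 23.8%. The number of Mt2 counts per Mt1 count varied by class, being 0.729 with Shi-Bi-Man plus imiquimod and 0.645 with imiquimod in basal keratinocyte-like cells, and 0.216 and 0.189, in the same order, in macrophage and monocyte-like cells. In blood endothelial-like cells it was 0.5203 with Shi-Bi-Man plus imiquimod and 0.304 with imiquimod.

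Between libraries, Mt2 was higher with Shi-Bi-Man plus imiquimod in endothelial-like and T and NK cell-like cells, and both genes were lower in dermal papilla-like cells. Dermal papilla-like cells had Mt1 at 1065 CPM with Shi-Bi-Man plus imiquimod and 2118 CPM with imiquimod (log2 ratio -0.99, -1.14 to -0.85) and Mt2 at 468 CPM with Shi-Bi-Man plus imiquimod and 817 CPM with imiquimod (ratio -0.80, -1.03 to -0.57). In blood endothelial-like cells Mt2 had 907 CPM (817 to 1004) with Shi-Bi-Man plus imiquimod and 415 CPM (379 to 453) with imiquimod, a log2 ratio of 1.13 (0.93 to 1.33), while Mt1 had 1744 CPM with Shi-Bi-Man plus imiquimod and 1363 CPM with imiquimod, a ratio of 0.36 (0.23 to 0.48). Lymphatic endothelial-like cells showed Mt2 at 271 CPM with Shi-Bi-Man plus imiquimod and 142 CPM with imiquimod, a ratio of 0.93 (0.34 to 1.54). Without cells holding a red cell marker count, the lymphatic endothelial-like Mt2 ratio was 0.42 (-0.28 to 1.19), with 78 cells with imiquimod. That interval spanned 0. The blood endothelial-like Mt2 ratio was then 1.12 (0.87 to 1.37). The Mt2 intervals of the 2 libraries did not overlap in blood endothelial-like cells. Markers of other cells moved the same way in these classes. Spinous keratinocyte markers summed to 2005 CPM with Shi-Bi-Man plus imiquimod and 559 CPM with imiquimod in blood endothelial-like cells, and to 1793 and 662 CPM, in the same order, in lymphatic endothelial-like cells. Fibroblast markers summed to 1854 CPM with Shi-Bi-Man plus imiquimod and 995 CPM with imiquimod in the blood endothelial-like class and to 6260 and 2557 CPM, in the same order, in the lymphatic one. Their part in the Mt2 ratios was not tested.

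In T and NK cell-like cells Mt1 had 970.4 CPM (885 to 1062) with Shi-Bi-Man plus imiquimod and 645 CPM (617 to 674) with imiquimod, a log2 ratio of 0.59 (0.44 to 0.74), and Mt2 had 377 CPM with Shi-Bi-Man plus imiquimod and 230.5 CPM with imiquimod, a ratio of 0.71 (0.47 to 0.94). The Mt1 ratio was under 1.5-fold in 3 of 13 alternatives, down to 0.47 as a mean over cells, and the Mt2 ratio in 1, at 0.54 without the 8% of cells with the highest Scrublet scores. Here too other cells' markers were higher, spinous ones summing to 3372 CPM with Shi-Bi-Man plus imiquimod and 969 CPM with imiquimod, stress keratin ones to 2056 and 875 CPM and fibroblast ones to 3087 and 1184 CPM, in the same order, and their part was not tested. The class held 3 clusters. In the largest, led by Il17f and Il17a, the cytokines of IL-17-producing T cells, with 214 cells with Shi-Bi-Man plus imiquimod and 1808 with imiquimod, Mt1 had 1157 CPM with Shi-Bi-Man plus imiquimod and 636 CPM with imiquimod (ratio 0.87, 0.67 to 1.05) and Mt2 449 CPM with Shi-Bi-Man plus imiquimod and 216 CPM with imiquimod (ratio 1.06, 0.73 to 1.36). In the cluster led by Ifng and Ccl5, Mt1 had 903 CPM with Shi-Bi-Man plus imiquimod and 617 CPM with imiquimod (ratio 0.55, 0.27 to 0.82). In the cluster led by Trat1, Cd7 and Prf1 the order was the other way, with Mt1 at 618 CPM with Shi-Bi-Man plus imiquimod and 1055 CPM with imiquimod (ratio -0.76, -1.27 to -0.28). This last cluster rested on 54 Mt1 counts with Shi-Bi-Man plus imiquimod and 102 with imiquimod.

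Macrophage and monocyte-like cells fell into a cluster led by Sirpb1c, Lyz1 and Cd300c2 and one led by Cd209b, Cd209f and Cd209g, genes of resident dermal macrophages. In the first, Mt1 had 1924 CPM with Shi-Bi-Man plus imiquimod and 1390.1 CPM with imiquimod (log2 ratio 0.47, 0.37 to 0.57) and Mt2 405 CPM with Shi-Bi-Man plus imiquimod and 262 CPM with imiquimod (ratio 0.63, 0.41 to 0.85). In the Cd209b-led cluster Mt1 had 2185 CPM with Shi-Bi-Man plus imiquimod and 2517 CPM with imiquimod (ratio -0.20, -0.32 to -0.09) and Mt2 487 CPM with Shi-Bi-Man plus imiquimod and 476 CPM with imiquimod (ratio 0.04, -0.22 to 0.28). The intervals of the Mt1 ratios of the 2 clusters lay on opposite sides of 0, and the Mt1 ratio of the whole class changed sign when the members were kept among the clustering genes.

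**Figure D3:**
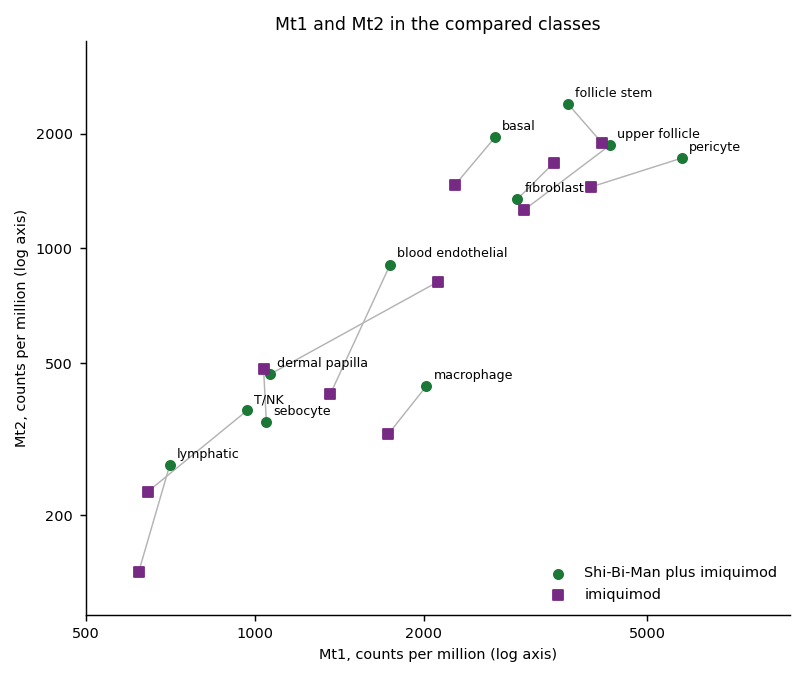
Mt2 against Mt1 in CPM, both on log axes, for the 11 compared classes. Circles show skin given Shi-Bi-Man plus imiquimod, squares skin given imiquimod, and a line joins both points of a class. The 2 genes are high together in follicle, basal and pericyte-like cells and low together in lymphatic endothelial and T and NK cell-like cells; the blood endothelial-like line is steep, with Mt2 differing more than Mt1, and the dermal papilla-like line has its circle at the lower end.

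In the compared keratinocyte classes the ratios of Mt1 and Mt2 stayed within 1.5-fold. Upper hair follicle keratinocyte-like cells had Mt1 at 4289 CPM with Shi-Bi-Man plus imiquimod and 3021 CPM with imiquimod (log2 ratio 0.51, 0.44 to 0.57) and Mt2 at 1862 CPM with Shi-Bi-Man plus imiquimod and 1262 CPM with imiquimod (ratio 0.56, 0.47 to 0.65), in a class whose all-gene median was 0.17. In basal keratinocyte-like cells the ratios were 0.24 (0.14 to 0.33) for Mt1 and 0.41 (0.30 to 0.53) for Mt2, but both were below 0 at a clustering resolution of 0.5, so no direction is given. Follicle stem-like cells had ratios of -0.20 (-0.25 to -0.16) for Mt1 and 0.34 (0.28 to 0.40) for Mt2, the second below 0 at a resolution of 2. The fibroblast-like class had Mt1 at 2933 CPM with Shi-Bi-Man plus imiquimod and 3410.4 CPM with imiquimod (ratio -0.22, -0.25 to -0.18) and Mt2 at 1344 CPM with Shi-Bi-Man plus imiquimod and 1675 CPM with imiquimod (ratio -0.32, -0.37 to -0.27). Its clusters went different ways: the one led by Myoc, Thbs4 and Angpt4 had Mt2 at 2639 CPM with Shi-Bi-Man plus imiquimod and 2106 CPM with imiquimod (ratio 0.33, 0.25 to 0.40), and the one led by Gm12407, Cpz and Creb3l3 had Mt2 at 1130.2 CPM with Shi-Bi-Man plus imiquimod and 1807 CPM with imiquimod (ratio -0.68, -0.77 to -0.59).

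Mt4 had the largest library difference of the set over all retained cells, and most of its counts were in keratinocyte-like classes. Over all retained cells it had 337 CPM (329 to 345) with Shi-Bi-Man plus imiquimod and 11.9 CPM (10.7 to 13.2) with imiquimod, 28.3-fold higher. Suprabasal keratinocyte-like cells, led by Hrnr, Krt78 and Lor, held 65.8% of the Mt4 counts with Shi-Bi-Man plus imiquimod at 1072 CPM; the imiquimod library had 8 cells of this class with 3 Mt4 counts. The share of cells of the class with an Mt4 count was 693 of 815 with Shi-Bi-Man plus imiquimod, with a highest count of 57 in a cell; thinned to 500 counts it was 323 of 815 (39.6%). Stress keratin keratinocyte-like cells, led by Krt6b, S100a9 and S100a8, held 58.3% of the Mt4 counts with imiquimod and had 274 CPM over 20 cells with Shi-Bi-Man plus imiquimod and 45.9 CPM over 763 cells with imiquimod. With suprabasal-like cells nearly all in 1 library, the amount of Mt4 over all cells and the cells recovered cannot be told apart.

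The difference also appeared within classes. Basal keratinocyte-like cells had Mt4 at 579.7 CPM (552 to 609) with Shi-Bi-Man plus imiquimod and 171 CPM (136 to 213) with imiquimod, a log2 ratio of 1.75 (1.44 to 2.10). That ratio was 4.19 without the 8% of cells with the highest Scrublet scores, and 2.44 (1.72 to 3.41) without cells holding a red cell marker count, which left 55 cells with imiquimod. With cells thinned to 500 counts, Mt4 was seen in 174 of 924 cells with Shi-Bi-Man plus imiquimod (18.8%, 16.4% to 21.5%) and 8 of 165 cells with imiquimod (4.85%, 2.12% to 9.33%); unthinned the shares were 48.1% with Shi-Bi-Man plus imiquimod and 14.5% with imiquimod. The counts were unevenly held: the 10% of basal-like cells with the most counts held 51.6% of them with Shi-Bi-Man plus imiquimod and 90.2% with imiquimod. Follicle stem-like cells had 126 CPM with Shi-Bi-Man plus imiquimod and 4.94 CPM with imiquimod (255 counts with Shi-Bi-Man plus imiquimod, 9 with imiquimod), a ratio of 4.60 (3.73 to 5.82). The basal-like class also held more spinous marker RNA, at 29517 CPM with Shi-Bi-Man plus imiquimod and 16629 CPM with imiquimod; its part in the Mt4 result was not tested.

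Classes that should lack Mt4 carried it at low levels with Shi-Bi-Man plus imiquimod. The T and NK cell-like class had 67.6 CPM with Shi-Bi-Man plus imiquimod and 2.28 CPM with imiquimod (33 counts with Shi-Bi-Man plus imiquimod and 7 with imiquimod), and thinned shares were 15 of 509 cells with Shi-Bi-Man plus imiquimod (2.95%, 1.66% to 4.81%) and 2 of 2521 cells with imiquimod (0.0793%, 0.00961% to 0.286%). Dermal papilla-like cells had 38 counts with Shi-Bi-Man plus imiquimod and 0 of 371968 with imiquimod, at least 6.73-fold higher against a floor of 3 counts for the library. Mt4 per 1000 spinous marker counts was 14.05 in fibroblast-like, 20.7 in blood endothelial-like, 20.04 in T and NK cell-like and 22.8 in macrophage and monocyte-like cells with Shi-Bi-Man plus imiquimod, beside 15.3 in suprabasal-like cells. Levels in these classes are not read as expression there. The corresponding values with imiquimod were 0.679, 1.49, 2.35 and 4.03, beside 1.63 in stress keratin-like cells. Melanocyte-like cells (113), the follicle stem-like (79.9) and hair matrix and shaft-like classes (46.5), dermal papilla-like (29.1) and sebocyte-like cells (25.6) stood above these with Shi-Bi-Man plus imiquimod. Follicle stem-like cells had 5.32 with imiquimod, and basal keratinocyte-like cells 19.6 with Shi-Bi-Man plus imiquimod and 10.3 with imiquimod.

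**Figure D4:**
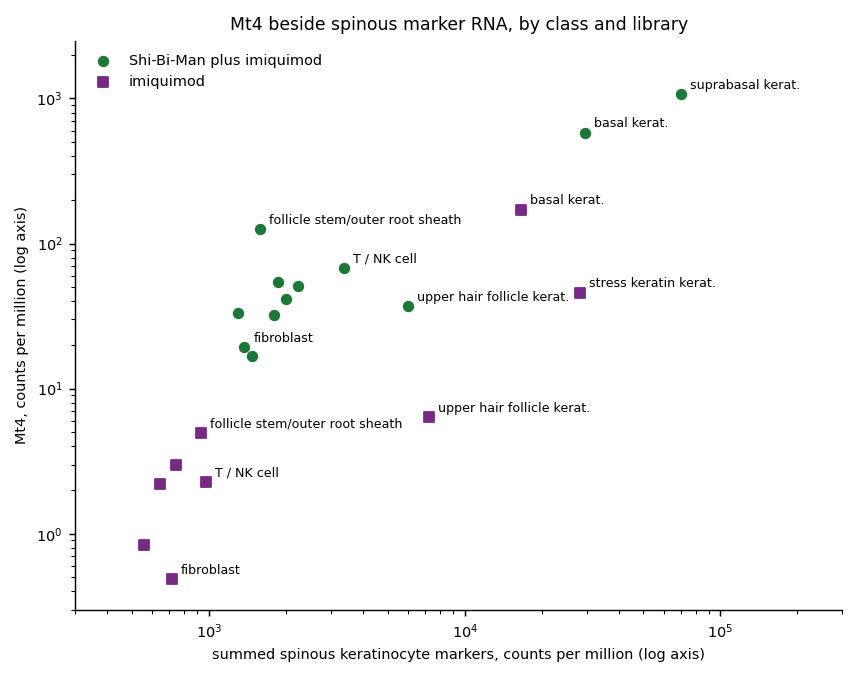
Mt4 against the summed spinous keratinocyte markers (Krt1, Krt10 and 6 others), both in CPM on log axes, for compared classes with an Mt4 count and 2 further keratinocyte classes. Circles show skin given Shi-Bi-Man plus imiquimod and squares skin given imiquimod, with the suprabasal and stress keratin keratinocyte-like classes shown for the library that holds nearly all of them. Suprabasal and basal keratinocyte-like circles are at the upper right, and for every class with both points the circle is the higher one.

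Gpx1 was found in every class and was lower with Shi-Bi-Man plus imiquimod in all 11 compared classes, past 1.5-fold in 1. In that class, the dermal papilla-like cells, it had 1604 CPM (1512 to 1701) with Shi-Bi-Man plus imiquimod and 7071 CPM (6803 to 7346) with imiquimod, a log2 ratio of -2.14 (-2.24 to -2.04). Thinned to 500 counts, 199 of 471 cells with Shi-Bi-Man plus imiquimod (42.3%, 37.7% to 46.9%) and 218 of 269 cells with imiquimod (81.04%, 75.8% to 85.5%) had a Gpx1 count; unthinned the shares were 63.1% with Shi-Bi-Man plus imiquimod and 85.1% with imiquimod. The median cell had 1 Gpx1 count with Shi-Bi-Man plus imiquimod and 4 with imiquimod, and the 10% of cells with the most counts held 51.4% and 44.4% of them, in the same order.

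Several other measures moved in the dermal papilla-like class. Its median cell had 1117 counts with Shi-Bi-Man plus imiquimod and 728 with imiquimod. Of its 9 markers, Corin had 375 CPM with Shi-Bi-Man plus imiquimod and 24.2 CPM with imiquimod, Sox18 1505 and 250, and Notum, the other way, 213 and 699, so the marker profile of the class differed between libraries. Red cell markers, in a class that should lack them, summed to 14.3 CPM with Shi-Bi-Man plus imiquimod and 4710.1 CPM with imiquimod. With cells holding any red cell marker count left out, 461 cells with Shi-Bi-Man plus imiquimod and 143 with imiquimod remained, and Gpx1 had 1605 CPM with Shi-Bi-Man plus imiquimod and 6622 CPM with imiquimod, a log2 ratio of -2.04 (-2.17 to -1.92). Of 12 genes of tissue dissociation and heat shock, 10 were at least 1.5-fold lower with Shi-Bi-Man plus imiquimod and 0 higher, beside 13.2% and 32.2% of all genes, with Hspa1a, an inducible chaperone, at 337 CPM with Shi-Bi-Man plus imiquimod and 1156 CPM with imiquimod (log2 ratio -1.78, -2.01 to -1.55). The part of these measures in the member ratios of this class was not tested. For the same 12 genes macrophage and monocyte-like cells gave 4 higher and 0 lower (median log2 ratio 0.37, all genes 0.02). Lymphatic endothelial-like cells gave the same (0.35, 0.04). The counts were 3 and 0 in the upper hair follicle (0.47, 0.17), T and NK cell-like (0.35, 0.03) and sebocyte-like (0.13, 0.05) classes. Blood endothelial-like cells gave 1 and 0, follicle stem-like cells 1 and 1, and the remaining classes 0 and 0. Their part in Mt1 and Mt2 ratios there was not tested.

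Summed red cell markers ran from 6.16 to 2524 CPM with Shi-Bi-Man plus imiquimod and from 255 to 12905 CPM with imiquimod over the 11 compared classes. Once cells holding such a count were left out, the Gpx1 ratio ran from -0.53 to -0.08 in the classes beside the dermal papilla-like one that kept 100 cells in each library, with basal keratinocyte-like and lymphatic endothelial-like cells, at 55 and 78 cells with imiquimod, no longer among them. With all cells kept, in these 10 classes the Gpx1 ratio ran from -0.56 in upper hair follicle keratinocyte-like cells to -0.14 in follicle stem-like cells. Macrophage and monocyte-like cells, the highest class with Shi-Bi-Man plus imiquimod and next after the dermal papilla-like one with imiquimod, had 1723 CPM (1646 to 1804) with Shi-Bi-Man plus imiquimod and 2431 CPM (2372 to 2491) with imiquimod, a ratio of -0.50 (-0.57 to -0.42). Their 2 clusters gave like values, -0.47 (-0.56 to -0.38) in the Sirpb1c-led and -0.44 (-0.58 to -0.31) in the Cd209b-led one. In T and NK cell-like cells the class ratio was -0.40 (-0.53 to -0.28), but in the Il17f-led cluster it was -0.02 (-0.17 to 0.13), with 1755 CPM with Shi-Bi-Man plus imiquimod and 1779.7 CPM with imiquimod, and in the Ifng-led cluster -0.04 (-0.34 to 0.24), with 737 CPM with Shi-Bi-Man plus imiquimod and 761 CPM with imiquimod. The 2 libraries also mixed these clusters differently: 214 of 509 cells with Shi-Bi-Man plus imiquimod and 1808 of 2521 with imiquimod were in the Il17f-led cluster, where Gpx1 stood higher than in the others. In the Trat1-led cluster the ratio was -1.08 (-1.67 to -0.54).

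Gpx2 was found mostly in the hair follicle. Upper hair follicle keratinocyte-like cells, led by Alox12e, Igfl3 and Cst6, had 57.02 CPM (40.1 to 78.6) with Shi-Bi-Man plus imiquimod and 153 CPM (139.6 to 167) with imiquimod, a log2 ratio of -1.41 (-1.95 to -0.94), and held 50% and 66.99% of all Gpx2 counts, in the same order. Few cells carried it: 15 of 187 cells with Shi-Bi-Man plus imiquimod and 150 of 620 with imiquimod had a count, and the top cell held 37.8% and 9.11% of the class's counts. With 1 cell holding that much, the interval, which treats counts as independent, is too narrow. Among the compared classes follicle stem-like cells came next, at 9.89 CPM with Shi-Bi-Man plus imiquimod and 26.9 CPM with imiquimod (ratio -1.42, -2.27 to -0.67). Of the classes not compared, stress keratin keratinocyte-like cells had 23.6 CPM with imiquimod. Hair matrix and shaft-like cells, also not compared, stood above the follicle stem-like level with imiquimod, on few cells and counts. Thinned shares in the upper follicle class were 4 of 187 cells with Shi-Bi-Man plus imiquimod (2.14%, 0.586% to 5.39%) and 27 of 620 cells with imiquimod (4.35%, 2.89% to 6.27%), and these intervals overlapped; in T and NK cell-like cells, not known to make Gpx2, 0.589% of cells with Shi-Bi-Man plus imiquimod and 0.198% with imiquimod had a count.

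Most Gpx3 counts were in fibroblasts. The fibroblast-like class held 89.3% of Gpx3 counts with Shi-Bi-Man plus imiquimod and 89.5% with imiquimod, at 2419.7 CPM (2372 to 2468) with Shi-Bi-Man plus imiquimod and 4220.4 CPM (4158 to 4284) with imiquimod, a log2 ratio of -0.80 (-0.84 to -0.77). Thinned to 500 counts, Gpx3 was seen in 513 of 1760 cells with Shi-Bi-Man plus imiquimod (29.1%, 27.03% to 31.3%) and 813 of 1814 cells with imiquimod (44.8%, 42.5% to 47.1%), beside 3.14% with Shi-Bi-Man plus imiquimod and 3.61% with imiquimod in T and NK cell-like cells, not known to make it; the unthinned fibroblast-like shares were 40.1% with Shi-Bi-Man plus imiquimod and 57.1% with imiquimod. Within the class, levels differed more between clusters than between libraries. The cluster led by Myoc, Thbs4 and Angpt4 had 9477 CPM (9269 to 9688) with Shi-Bi-Man plus imiquimod and 7649 CPM (7522 to 7777) with imiquimod, a ratio of 0.31 (0.27 to 0.35), above 0. The cluster led by Smpd3, Krt19 and Pgr had 5508 CPM with Shi-Bi-Man plus imiquimod and 6313 CPM with imiquimod (ratio -0.20, -0.30 to -0.09). The cluster led by Gm12407, Cpz and Creb3l3 had 386 CPM with Shi-Bi-Man plus imiquimod and 871 CPM with imiquimod (ratio -1.17, -1.31 to -1.03), and the one led by Kera, Coch and Fmod had 112 CPM with Shi-Bi-Man plus imiquimod and 141 CPM with imiquimod (ratio -0.33, -0.71 to 0.05). The 2 clusters with much Gpx3 made up 361 plus 113 of 1760 fibroblast-like cells with Shi-Bi-Man plus imiquimod and 661 plus 245 of 1814 with imiquimod, and the Gm12407-led cluster 888 and 384. The class ratio thus covers different mixes of clusters, and the most fibroblast-like cells were in the Gm12407-led cluster with Shi-Bi-Man plus imiquimod and in the Myoc-led one with imiquimod.

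Sod3, which acts outside cells on the matrix, was also highest in fibroblasts. The fibroblast-like class held 71.3% of Sod3 counts with Shi-Bi-Man plus imiquimod and 81.9% with imiquimod, at 172 CPM (159.6 to 185) with Shi-Bi-Man plus imiquimod and 424 CPM (404 to 444) with imiquimod, a log2 ratio of -1.30 (-1.43 to -1.17). Unlike Gpx3, it was lower with Shi-Bi-Man plus imiquimod in each of the 3 largest clusters, with 63.8 CPM with Shi-Bi-Man plus imiquimod and 320.4 CPM with imiquimod in the Kera-led cluster (ratio -2.32, -2.75 to -1.93). The Gm12407-led cluster had 103 CPM with Shi-Bi-Man plus imiquimod and 282 CPM with imiquimod (ratio -1.46, -1.72 to -1.20), while the Myoc-led cluster had 425 CPM with Shi-Bi-Man plus imiquimod and 559.7 CPM with imiquimod (ratio -0.40, -0.58 to -0.22). In the Smpd3-led cluster, the smallest, it had 374 CPM with Shi-Bi-Man plus imiquimod and 395 CPM with imiquimod (ratio -0.07, -0.50 to 0.33), whose interval spanned 0. Thinned to 500 counts, Sod3 was seen in 133 of 1760 cells with Shi-Bi-Man plus imiquimod (7.56%, 6.37% to 8.89%) and 273 of 1814 cells with imiquimod (15.05%, 13.4% to 16.8%) of the class; the unthinned shares were 22.3% with Shi-Bi-Man plus imiquimod and 41.6% with imiquimod. In T and NK cell-like cells, not known to make it, the thinned shares were 0.786% with Shi-Bi-Man plus imiquimod and 0.317% with imiquimod. In dermal papilla-like cells Sod3 had 25 counts with Shi-Bi-Man plus imiquimod and 3 with imiquimod, a log2 ratio of 1.95 (0.43 to 4.52). That wide interval comes from the 3 counts with imiquimod.

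**Figure D5:**
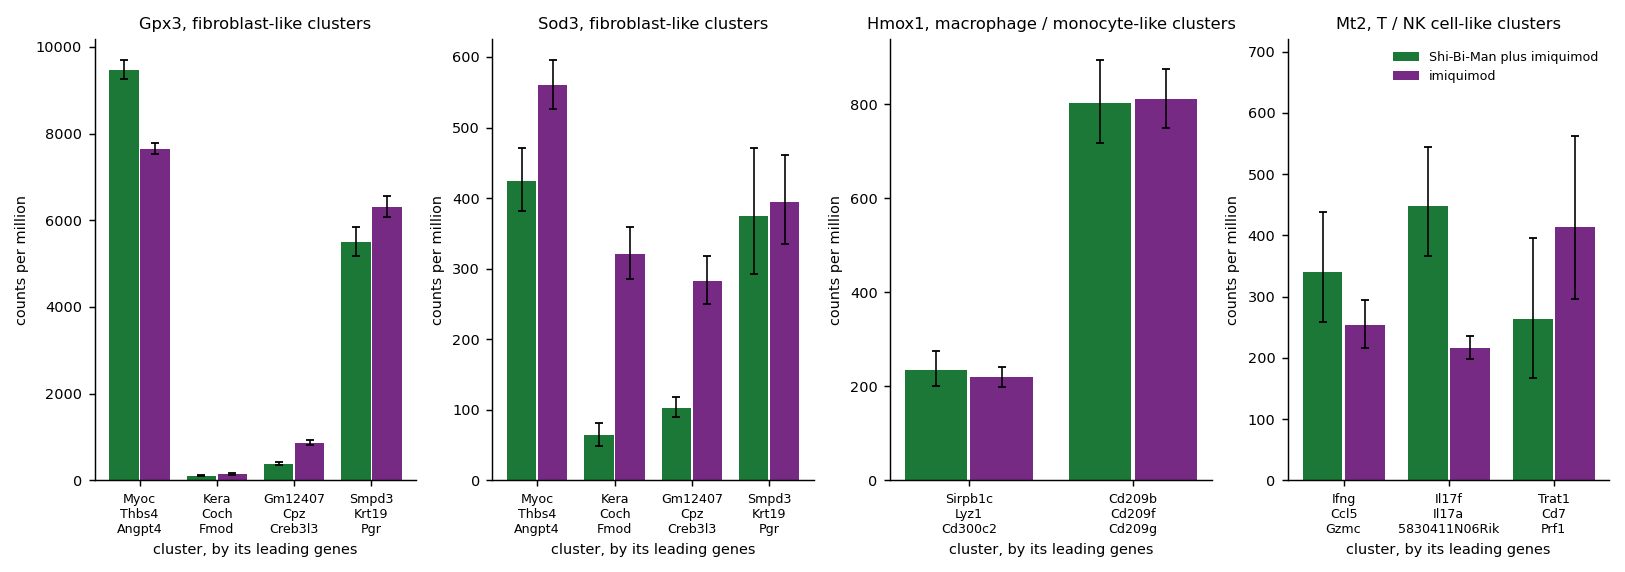
Levels in CPM, by cluster, of Gpx3 and Sod3 in fibroblast-like, Hmox1 in macrophage and monocyte-like and Mt2 in T and NK cell-like cells. Left bars show skin given Shi-Bi-Man plus imiquimod, right bars skin given imiquimod, lines the 95% Poisson intervals, and clusters carry their 3 leading genes. Gpx3 is high in the Myoc-led and Smpd3-led clusters in both libraries, Sod3 has the lower bar at left in the Myoc-, Kera- and Gm12407-led clusters, and both Hmox1 clusters have near-equal bars.

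Sod2 was highest in dermal papilla-like cells, at 311 CPM (271 to 355) with Shi-Bi-Man plus imiquimod and 454 CPM (388 to 528) with imiquimod, a log2 ratio of -0.55 (-0.84 to -0.25). Next came pericyte-like cells at 279.9 CPM with Shi-Bi-Man plus imiquimod, inside the dermal papilla-like interval, and sebocyte-like cells at 249.9 CPM with imiquimod. Among classes with at least 50 cells, 13 of 14 neighbouring pairs overlapped with Shi-Bi-Man plus imiquimod and 13 of 15 with imiquimod. No compared class passed 1.5-fold, but the Gm12407-led fibroblast cluster had 117 CPM with Shi-Bi-Man plus imiquimod and 241 CPM with imiquimod (ratio -1.04, -1.31 to -0.78) and the Smpd3-led one, the other way, 229 CPM with Shi-Bi-Man plus imiquimod and 125 CPM with imiquimod (ratio 0.87, 0.25 to 1.49). Of 9 inflammatory genes linked to the induction of Sod2, fibroblast-like cells had 6 at least 1.5-fold lower with Shi-Bi-Man plus imiquimod and 0 higher, beside 11.0% and 9.70% of all genes, with a median log2 ratio of -1.10 beside 0.01 for all genes. Saa3, an acute-phase protein, had 35.2 CPM with Shi-Bi-Man plus imiquimod and 889 CPM with imiquimod (log2 ratio -4.65, -4.91 to -4.42). Il1b, the cytokine interleukin 1 beta, had 2.93 CPM with Shi-Bi-Man plus imiquimod and 10.7 CPM with imiquimod (log2 ratio -1.82, -2.92 to -0.92). Icam1, an adhesion molecule, had 532 CPM with Shi-Bi-Man plus imiquimod and 519 CPM with imiquimod (log2 ratio 0.04, -0.05 to 0.12).

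Hmox1 was highest in macrophages. Macrophage and monocyte-like cells had 452 CPM (413 to 494) with Shi-Bi-Man plus imiquimod and 397 CPM (373 to 421) with imiquimod, a log2 ratio of 0.19 (0.03 to 0.34), which turned to below 0 when the members were kept among the clustering genes, so no direction is given. The Cd209b-led cluster had 802 CPM with Shi-Bi-Man plus imiquimod and 810.2 CPM with imiquimod (ratio -0.01, -0.21 to 0.18) and the Sirpb1c-led cluster 236 CPM with Shi-Bi-Man plus imiquimod and 219 CPM with imiquimod (ratio 0.11, -0.17 to 0.37), so the level differed by cluster and both ratio intervals spanned 0. Thinned to 500 counts, Hmox1 was seen in 116 of 759 cells with Shi-Bi-Man plus imiquimod (15.3%, 12.8% to 18.04%) and 217 of 1561 cells with imiquimod (13.9%, 12.2% to 15.7%) of the class, beside 5.09% with Shi-Bi-Man plus imiquimod and 1.21% with imiquimod among basal keratinocyte-like cells; unthinned the macrophage shares were 28.2% with Shi-Bi-Man plus imiquimod and 28.3% with imiquimod. The median macrophage and monocyte-like cell had 1235 counts with Shi-Bi-Man plus imiquimod and 1416 with imiquimod, and the median basal keratinocyte-like cell 2431 and 2180. Of 11 measured haem and iron genes in macrophage and monocyte-like cells, 2 were at least 1.5-fold higher with Shi-Bi-Man plus imiquimod and 0 lower, beside 13.8% and 11.6% of all genes. Cd163, the receptor for haemoglobin bound to haptoglobin, had 508 CPM with Shi-Bi-Man plus imiquimod and 309 CPM with imiquimod (log2 ratio 0.72, 0.56 to 0.87), and Fth1, the ferritin heavy chain, 3688 CPM with Shi-Bi-Man plus imiquimod and 4259.6 CPM with imiquimod (log2 ratio -0.21, -0.26 to -0.16).

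Outside macrophages the Hmox1 ratio went both ways. Dermal papilla-like cells had 299.8 CPM (261 to 343) with Shi-Bi-Man plus imiquimod and 69.9 CPM (45.7 to 102) with imiquimod, a log2 ratio of 2.08 (1.51 to 2.75). Without cells holding a red cell marker count it was 1.87 (1.09 to 2.90). Thinned to 500 counts, 65 of 471 cells with Shi-Bi-Man plus imiquimod (13.8%, 10.8% to 17.2%) and 13 of 269 cells with imiquimod (4.83%, 2.598% to 8.12%) had a count; the unthinned shares were 27.8% with Shi-Bi-Man plus imiquimod and 8.18% with imiquimod. Of 7 measured haem and iron genes in the same class, 2 were at least 1.5-fold higher and 2 lower, beside 32.2% and 13.2% of all genes. Among the lower, Fth1 had 789 CPM with Shi-Bi-Man plus imiquimod and 2963 CPM with imiquimod (log2 ratio -1.91, -2.06 to -1.76). Blood endothelial-like cells had Hmox1 at 41.6 CPM (24.2 to 66.6) with Shi-Bi-Man plus imiquimod and 105 CPM (87.6 to 125) with imiquimod, a ratio of -1.30 (-2.16 to -0.60), and follicle stem-like cells had 15.3 CPM with Shi-Bi-Man plus imiquimod and 36.2 CPM with imiquimod, a ratio of -1.23 (-1.91 to -0.61). The follicle stem-like ratio was under 1.5-fold in 2 alternatives, at a clustering resolution of 0.5 and with at least 500 genes per cell, where it was -0.22. These 2 ratios rest on 17 and 31 counts with Shi-Bi-Man plus imiquimod, against 126 and 66 with imiquimod. Red cell markers summed to 9.89 CPM with Shi-Bi-Man plus imiquimod and 12905 CPM with imiquimod in follicle stem-like cells and to 53.8 CPM with Shi-Bi-Man plus imiquimod and 944 CPM with imiquimod in blood endothelial-like cells, and without cells holding such a count the blood endothelial-like ratio was -1.56 (-2.51 to -0.77). Macrophage and monocyte markers summed to 108 CPM with Shi-Bi-Man plus imiquimod and 273 CPM with imiquimod in the blood endothelial-like class, and their part was not tested.

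Nqo1 was sparse, with 202 counts with Shi-Bi-Man plus imiquimod and 297 with imiquimod over all retained cells. Endothelial classes stood out with Shi-Bi-Man plus imiquimod: lymphatic endothelial-like cells had 68.8 CPM (38.5 to 113) with Shi-Bi-Man plus imiquimod and 27.02 CPM (11.7 to 53.2) with imiquimod, a log2 ratio of 1.31 (0.02 to 2.79), and blood endothelial-like cells 61.1 CPM (39.6 to 90.2) with Shi-Bi-Man plus imiquimod and 27.5 CPM (18.95 to 38.7) with imiquimod, a ratio of 1.16 (0.34 to 1.94). Both intervals of the ratio lay above 0 with all cells kept. Without cells holding a red cell marker count, both spanned 0. The ratio was then 0.97 (-0.56 to 3.14) in lymphatic and 0.86 (-0.14 to 1.90) in blood endothelial-like cells. With all cells, the lymphatic ratio rested on 15 counts with Shi-Bi-Man plus imiquimod and 8 with imiquimod, and the blood endothelial one on 25 and 33. The part of the spinous and fibroblast marker RNA given above for both classes was not tested. Of 26 regulators and targets of the NRF2 system, 24 were measured in blood endothelial-like cells, where 1 was at least 1.5-fold higher with Shi-Bi-Man plus imiquimod and 5 lower, beside 13.9% and 18.9% of all genes, with a median log2 ratio of -0.16 beside -0.03 for all genes. The 1 that was higher was Txnrd1, thioredoxin reductase 1, with 352 CPM with Shi-Bi-Man plus imiquimod and 213 CPM with imiquimod (log2 ratio 0.73, 0.42 to 1.03). Srxn1, sulfiredoxin, had 4.89 CPM with Shi-Bi-Man plus imiquimod and 30.04 CPM with imiquimod (log2 ratio -2.32, -5.72 to -0.66) and Gclm, the modifier subunit of glutamate-cysteine ligase, 17.1 CPM with Shi-Bi-Man plus imiquimod and 49.2 CPM with imiquimod (log2 ratio -1.44, -2.90 to -0.39). In basal keratinocyte-like cells Nqo1 had 38 counts with Shi-Bi-Man plus imiquimod and 2 with imiquimod, a ratio of 1.41 (-0.24 to 4.81) whose interval spanned 0.

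The same NRF2 list was counted in the other classes. Lymphatic endothelial-like cells had 3 higher and 2 lower of 13, beside 803 and 601 of 4432 genes. Upper hair follicle keratinocyte-like cells had 2 and 1 of 23, beside 24.5% and 9.72% of all genes. Sebocyte-like cells had 2 and 2 of 26, beside 1411 and 906 of 10095 genes. Pericyte-like cells had 2 and 3 of 14, beside 699 and 758 of 4756 genes. Basal keratinocyte-like cells had 3 higher and 7 lower of 25, beside 13.0% and 20.4% of all genes, and follicle stem-like cells 0 and 6 of 25, beside 22.4% and 11.1%. Fibroblast-like cells had 2 and 1 of 25, beside 9.70% and 11.0%, and macrophage and monocyte-like cells 4 and 2 of 25, beside 13.8% and 11.6%. The counts were 5 and 1 of 23 for T and NK cell-like cells, beside 19.3% and 16.0%, and 8 and 7 of 23 for dermal papilla-like cells, beside 32.2% and 13.2%. In follicle stem-like cells the carbonyl reductases Cbr3 and Cbr1 were among the lower: Cbr1 had 52.9 CPM with Shi-Bi-Man plus imiquimod and 118 CPM with imiquimod (log2 ratio -1.15, -1.50 to -0.81). Bach1, a repressor of Hmox1, had 60.5 CPM with Shi-Bi-Man plus imiquimod and 109 CPM with imiquimod (log2 ratio -0.85, -1.30 to -0.37) in basal keratinocyte-like cells. In follicle stem-like cells it had 79.6 CPM with Shi-Bi-Man plus imiquimod and 56.6 CPM with imiquimod (log2 ratio 0.49, 0.13 to 0.86).

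Genes of metal handling, 16 in number, were set beside the metallothioneins. Follicle stem-like cells had 6 at least 1.5-fold higher with Shi-Bi-Man plus imiquimod and 0 lower of 13 measured, beside 22.4% and 11.1% of all genes, with a median log2 ratio of 0.54 beside 0.13 for all genes. The zinc importers Slc39a8 and Slc39a10 were among the higher: Slc39a8 had 85.03 CPM with Shi-Bi-Man plus imiquimod and 8.79 CPM with imiquimod (log2 ratio 3.23, 2.53 to 4.11) and Slc39a10 168 CPM with Shi-Bi-Man plus imiquimod and 34.6 CPM with imiquimod (log2 ratio 2.27, 1.89 to 2.69). Mtf1, the metal-sensing factor, had 11.4 CPM with Shi-Bi-Man plus imiquimod and 16.5 CPM with imiquimod (log2 ratio -0.53, -1.39 to 0.30) there, and in fibroblast-like cells it had 13.9 CPM with Shi-Bi-Man plus imiquimod and 17.2 CPM with imiquimod (log2 ratio -0.30, -0.83 to 0.22). In fibroblast-like cells 1 was higher and 0 lower of 12, beside 9.70% and 11.0% of all genes, and in blood endothelial-like cells 3 and 0 of 11, beside 13.9% and 18.9%. In T and NK cell-like cells the counts were 3 and 3 of 13, beside 19.3% and 16.0%, in macrophage and monocyte-like cells 1 and 1 of 12, beside 13.8% and 11.6%, and in basal keratinocyte-like cells 0 and 3 of 11, beside 13.0% and 20.4%. Slc39a14, a zinc and iron importer, had 41.6 CPM with Shi-Bi-Man plus imiquimod and 18.4 CPM with imiquimod (log2 ratio 1.19, 0.18 to 2.16) in blood endothelial-like cells, where Mt2 was higher.

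Of 24 glutathione and thioredoxin enzymes, 21 were measured in blood endothelial-like cells, 2 at least 1.5-fold higher with Shi-Bi-Man plus imiquimod and 8 lower, beside 13.9% and 18.9% of all genes, with a median of -0.55 beside -0.03 for all genes. Prdx6, a peroxiredoxin, had 73.4 CPM with Shi-Bi-Man plus imiquimod and 151 CPM with imiquimod (log2 ratio -1.02, -1.65 to -0.48), and Txnip, the thioredoxin inhibitor, 119.8 CPM with Shi-Bi-Man plus imiquimod and 47.6 CPM with imiquimod (log2 ratio 1.34, 0.75 to 1.91). Macrophage and monocyte-like cells had 5 higher and 6 lower of 24, beside 13.8% and 11.6% of all genes; Gsr, glutathione reductase, had 19.5 CPM with Shi-Bi-Man plus imiquimod and 40.1 CPM with imiquimod (log2 ratio -1.02, -1.79 to -0.36). Fibroblast-like cells had 0 and 2 of 24, beside 9.70% and 11.0%. The 8 superoxide and peroxide genes beside the members were near even in fibroblast-like cells, with 0 higher and 0 lower, beside the same shares. Cat (catalase) had 71.6 CPM with Shi-Bi-Man plus imiquimod and 78.8 CPM with imiquimod (log2 ratio -0.14, -0.37 to 0.09). Of oxidant-producing enzymes, fibroblast-like cells had 0 higher and 4 lower of 7, beside 9.70% and 11.0% of all genes. Nox4, an NADPH oxidase of fibroblasts, had 15.9 CPM with Shi-Bi-Man plus imiquimod and 46.5 CPM with imiquimod (log2 ratio -1.54, -1.98 to -1.14). Rac2 and Cybb, of the phagocyte oxidase, were also lower there, Cybb with 2.69 CPM with Shi-Bi-Man plus imiquimod and 7.76 CPM with imiquimod (log2 ratio -1.49, -2.67 to -0.50); in macrophage and monocyte-like cells Cybb had 614 CPM with Shi-Bi-Man plus imiquimod and 587 CPM with imiquimod (log2 ratio 0.07, -0.07 to 0.20). In the fibroblast-like class macrophage and monocyte markers summed to 148 CPM with Shi-Bi-Man plus imiquimod and 198 CPM with imiquimod and neutrophil markers to 9.53 and 139 CPM, in the same order, and their part in the Rac2, Cybb and Il1b ratios was not tested. For the glucocorticoid response, fibroblast-like cells had 2 higher and 2 lower of 10, beside 9.70% and 11.0% of all genes. The T and NK cell-like class gave 1 and 0 of 10, beside 19.3% and 16.0%. Upper hair follicle keratinocyte-like cells gave 3 and 0 of 10, beside 24.5% and 9.72%, with a median of 0.42 beside 0.17. Follicle stem-like and sebocyte-like cells each gave 2 and 0 of 9, and macrophage and monocyte-like cells 1 and 0 of 10. Basal-like cells gave 1 and 0 of 9. The order was reversed in pericyte-like (0 and 3 of 8), lymphatic (0 and 2 of 7) and blood endothelial-like cells (0 and 1 of 9). Dermal papilla-like cells had 1 and 6 of 9, beside 32.2% and 13.2% of all genes, and Nfkbia, the NF-kappa B inhibitor, had 1462 CPM with Shi-Bi-Man plus imiquimod and 4239.6 CPM with imiquimod (log2 ratio -1.54, -1.65 to -1.42) there.

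The genes most like each member in level were ranked by Pearson's r of log2(CPM + 10) over the same 34 sums, as a description. After each other, Mt1 and Mt2 were nearest to Art3 (0.79) and Hspb8 (0.84). Mt4 was nearest to Serpinb2 (0.91), Sprr2h (0.89), Sprr2g (0.89), genes of the cornifying epidermis in the case of the Sprr family. The sums left out suprabasal-like cells, with 65.8% of Mt4 counts with Shi-Bi-Man plus imiquimod, and stress keratin-like cells, with 58.3% with imiquimod. Several classes in the sums are ones whose Mt4 is not read as expression. Gpx2 was nearest to Alox12e (0.87), Defb6 (0.86), Chil1 (0.85), and Gpx3 to Akr1c14 (0.96), Tmeff2 (0.95), Ptx3 (0.95). Sod3 was nearest to Has1 (0.95), C1s1 (0.95), Loxl1 (0.95) and Hmox1 to Sdc3 (0.81), Kctd12 (0.76), Unc93b1 (0.74). Gpx1 and Sod2 had values up to 0.79 for Son and 0.72 for Cebpb. Nqo1 had too few counts to be ranked.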

How the data were processed

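The 2 libraries, from 3′ single-cell RNA sequencing, were grouped by their treatment labels. Values deposited by the authors are raw counts for each gene and barcode, whole numbers throughout, and the builds named in the submitters' processing notes are mm10 and GRCm38. How reads were aligned, counted and collapsed by molecular identifier is not given in the sources used here, so intervals treat deposited counts as independent. Entries sharing a symbol (231 of 55471) were summed; each member has 1 entry. The members and gene lists were chosen with earlier results of these data known.

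Cells had at least 200 genes and at most 20% mitochondrial counts. Scrublet (rate 0.08, scanpy 1.11.5) marked 83 of 7946 cells with Shi-Bi-Man plus imiquimod (1.04%) and 0 of 11019 with imiquimod, where it has not worked. Both libraries were clustered together without integration, on 2000 variable genes that excluded members and list genes, 30 components, 15 neighbours and Leiden resolution 1. A class needed 3 markers at least 2-fold higher than in other cells and in 10% of the cluster's cells; a cluster with leading markers of another class, or 75% of another lineage's markers, stayed unnamed. Classes with at least 100 cells per library were compared by summed CPM with Poisson intervals, and log2 ratios with 0.5 added and exact conditional binomial intervals. Shares used cells thinned to 500 counts, with Clopper-Pearson intervals; no cell was left out. A value of at least 20 counts was called past 1.5-fold, with no test. Named list genes are among the 3 highest and 3 lowest of a list in a class, and like genes the 3 nearest with at least 500 counts. The ratio and its interval were tested on counts simulated as independent. That test cannot show whether the intervals hold where a few cells hold most counts. Alternatives used edgeR 4.0.16 TMM factors and DESeq2 1.42.0 size factors, among others; leaving out Mt4, the dermal papilla class, the top 8% of Scrublet scores or cells with red cell marker counts was chosen after seeing the data. RefSeq upstream windows matched 8 of 10 members; Sod3 and Hmox1 are named only.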

Additional observations from a re-analysis of the deposited data

Results flagged for a closer look

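Of the 10 genes, 5 were at least 1.5-fold higher with Shi-Bi-Man plus imiquimod in 1 class and at least 1.5-fold lower in another, with both intervals clear of 0. How many of all genes met the same rule was not counted, so 5 of 10 is not read as particular to these genes. With 1 library per group the difference between classes was not tested. The log2 ratio of Mt1 was 0.59 (0.44 to 0.74) in T and NK cell-like cells and -0.99 (-1.14 to -0.85) in dermal papilla-like cells; the first was under 1.5-fold in 3 alternatives, down to 0.47. For Mt2 it was 1.13 (0.93 to 1.33) in blood endothelial-like cells and -0.80 (-1.03 to -0.57) in dermal papilla-like cells. Gpx3 had 0.98 (0.34 to 1.57) in upper hair follicle keratinocyte-like and -1.32 (-2.10 to -0.65) in pericyte and smooth muscle-like cells; the first changed sign without the 8% of cells with the highest Scrublet scores. Without cells holding a red cell marker count the second was -0.74 (-1.62 to 0.09), an interval that spanned 0, and fibroblast markers in that class summed to 2544 CPM with Shi-Bi-Man plus imiquimod and 5536 CPM with imiquimod; their part was not tested. Sod3 had 1.95 (0.43 to 4.52) in dermal papilla-like and -1.30 (-1.43 to -1.17) in fibroblast-like cells. Hmox1 had 2.08 (1.51 to 2.75) in dermal papilla-like and -1.30 (-2.16 to -0.60) in blood endothelial-like cells. The dermal papilla-like class is on 1 side of 4 of these 5 contrasts, and its markers, red cell RNA and depth also differed between libraries.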

How the results depend on the processing

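Across 13 alternatives and 1152 recomputed ratios, 1026 stayed inside the interval of the reported ratio, 118 moved outside it and 8 of a value past 1.5-fold changed sign. Of the 37 values past 1.5-fold, 26 stayed past it and 31 kept their direction under every alternative that gave a value. The count of higher values was 21; it was 13 of 84 without Mt4, and 14 to 27 under the other alternatives. The count of lower values was 16 and ran from 11 to 22. Under all alternatives run, Gpx1 in dermal papilla-like cells ran from -2.42 to -1.92, Hmox1 there from 1.49 to 2.65, Sod3 in fibroblast-like cells from -1.34 to -1.18, Mt2 in blood endothelial-like cells from 1.01 to 1.25 and Mt4 in basal keratinocyte-like cells from 1.71 to 4.19, the last without the 8% of cells with the highest Scrublet scores. Signs changed as follows, and the cause was not tested. With the 8% of cells with the highest Scrublet scores left out, Gpx3 had 0.23 in basal keratinocyte-like, 0.59 in blood endothelial-like and -0.012 in upper hair follicle keratinocyte-like cells, and Sod3 1.64 in basal keratinocyte-like cells. At resolution 0.5, Sod3 had 0.22 and Nqo1 -0.66 in basal keratinocyte-like cells, and Hmox1 -0.32 in upper hair follicle keratinocyte-like cells; with at least 500 genes per cell the last was -0.13. The basal keratinocyte-like class gave no value to these counts with at most 10% mitochondrial counts or at least 500 genes. Without cells holding a red cell marker count, the basal and lymphatic endothelial-like classes gave none. The follicle stem-like class gave none without the top Scrublet scores. In each case fewer than 100 cells in a library carried the name, and ratios printed above for such classes are outside these counts. TMM scaling shifted every ratio of the dermal papilla-like class by -0.28, of the upper hair follicle class by -0.14 and of the follicle stem class by -0.14. Depth left 18 of the 110 combinations of gene and class under 20 counts, and these were not compared. No paired analysis was possible because each group held 1 library.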

Other observations

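Classes with under 100 cells in a library were left out of the comparison, and their values are given here without one. Melanocyte-like cells (72 with Shi-Bi-Man plus imiquimod, 64 with imiquimod) had Mt1 at 3305 CPM (3082 to 3539) with Shi-Bi-Man plus imiquimod and 6110.1 CPM (5763 to 6472) with imiquimod, Mt2 at 1523 CPM with Shi-Bi-Man plus imiquimod and 2323 CPM with imiquimod and Gpx3 at 88.9 CPM with Shi-Bi-Man plus imiquimod and 332 CPM with imiquimod. Fibroblast markers in these cells summed to 1361 CPM with Shi-Bi-Man plus imiquimod and 4704 CPM with imiquimod, and their part in the Gpx3 levels was not tested. Langerhans cell-like cells (69 and 602, in the same order) had Gpx1 at 470.5 CPM (365 to 597) with Shi-Bi-Man plus imiquimod and 893 CPM (849.8 to 937) with imiquimod, Mt1 at 1369 CPM with Shi-Bi-Man plus imiquimod and 1275 CPM with imiquimod and Mt2 at 414 CPM with Shi-Bi-Man plus imiquimod and 226 CPM with imiquimod. Schwann cell-like cells (35 and 74) had Mt2 at 2434 CPM (1908 to 3060.1) with Shi-Bi-Man plus imiquimod and 1099 CPM (864 to 1377) with imiquimod. Hair matrix and shaft-like cells (162 and 47) had Gpx2 at 1.704 CPM (0.0431 to 9.496) with Shi-Bi-Man plus imiquimod and 88.5 CPM (40.4 to 168) with imiquimod, that is 1 count with Shi-Bi-Man plus imiquimod and 9 with imiquimod. Stress keratin keratinocyte-like cells had Gpx1 at 1392 CPM with Shi-Bi-Man plus imiquimod and 2096 CPM with imiquimod and Mt1 at 3512 CPM with Shi-Bi-Man plus imiquimod and 2153 CPM with imiquimod, over 20 and 763 cells.

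An unnamed cluster led by Sema3a, Mmp11 and Grem1, with 483 cells with Shi-Bi-Man plus imiquimod and 223 with imiquimod, carried 7 of 8 fibroblast markers but had Tnc, listed here as a stress keratin keratinocyte marker, among its leading genes. It had Sod3 at 153 CPM (129.8 to 180.2) with Shi-Bi-Man plus imiquimod and 306 CPM (257 to 361) with imiquimod, Hmox1 at 81.4 CPM with Shi-Bi-Man plus imiquimod and 127 CPM with imiquimod, Gpx3 at 196 CPM with Shi-Bi-Man plus imiquimod and 259.8 CPM with imiquimod and Mt1 at 2226 CPM with Shi-Bi-Man plus imiquimod and 1849 CPM with imiquimod. Its log2 ratio of Sod3 was -0.99 (-1.34 to -0.65), on the same side of 0 as in the 3 largest fibroblast-like clusters.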
